A study of Mus musculus with 12 samples.

Results

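The response of the hippocampus of control mice to the convulsant kainate was measured 1 hour after injection. It comprised 6 of the 12 Affymetrix mouse arrays of the study, chosen by their titles: 3 arrays from kainate-treated and 3 from saline-treated control mice, compared over 12422 probe sets. Kainate was given intraperitoneally at 20 mg/kg. All animals were littermate males and females of 5 to 6 weeks, kept in single cages and handled for 5 days, and killed by cervical dislocation. Every array held a pool of hippocampal RNA from 3 mice, which makes 9 mice a group, and the p values measure the spread between pools. The other 6 arrays were from mutants lacking CREB and CREM, a pair of related transcription factors, 3 after kainate and 3 after saline. The labels give neither the alleles that the control littermates carried nor the means by which the genes were lost in the mutants.

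Kainate is an agonist of kainate-type and AMPA-type glutamate receptors that drives hippocampal neurons into seizure firing, with field CA3 and the dentate gyrus most involved. Calcium entry and MAP kinase signalling then phosphorylate factors already bound at promoters, among them CREB at cAMP response elements and the serum response factor complex at CArG boxes. The genes they switch on within minutes, without new protein synthesis, are the immediate early genes. Many encode transcription factors, and others encode phosphatases, RNA-binding proteins and signalling inhibitors that end the response.

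Values are log2 expression values made with GCRMA, so that a difference of 1 is a doubling. A probe set passed when its limma p value was under 0.05 after Benjamini-Hochberg adjustment across the 12422 probe sets. The 6 control arrays correlated with each other at 0.976 to 0.998 across probe sets. The control kainate array of replicate 3 stood apart: its values had an interquartile range of 3.74, and those of the 11 remaining arrays 4.40 to 4.61. The replicate 1 arrays also stood apart from replicates 2 and 3. The counts, and the changes nearest the threshold, are also given without the control kainate array of replicate 3 and within replicates 2 and 3.

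Kainate raised 35 probe sets in controls (0.282% of those tested) and lowered 6 (0.0483%). The rises were large and the falls small: 28 of the 35 rises were at least 2-fold, 19 at least 4-fold and 9 at least 16-fold, whereas the largest fall that passed was 1.71-fold. The 35 rises covered 30 genes with a single symbol and the 6 falls covered 5. Without the control kainate array of replicate 3 there were 43 rises and 5 falls, with replicate 1 as a batch 41 and 9, and within replicates 2 and 3 alone 46 and 100. Centring each array on its median left 28 rises and 0 falls. All 41 probe sets had their 3 kainate arrays on one side of the 3 saline arrays, which 2.29% of all probe sets did upwards and 4.75% downwards. At an unadjusted p under 0.05 the balance was the other way, with 244 probe sets higher and 671 lower, against 621 expected over both directions if nothing had changed. That imbalance depended on the processing: it was 407 higher and 467 lower after quantile normalisation, and 352 and 429 without the control kainate array of replicate 3.

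**Figure D1:**
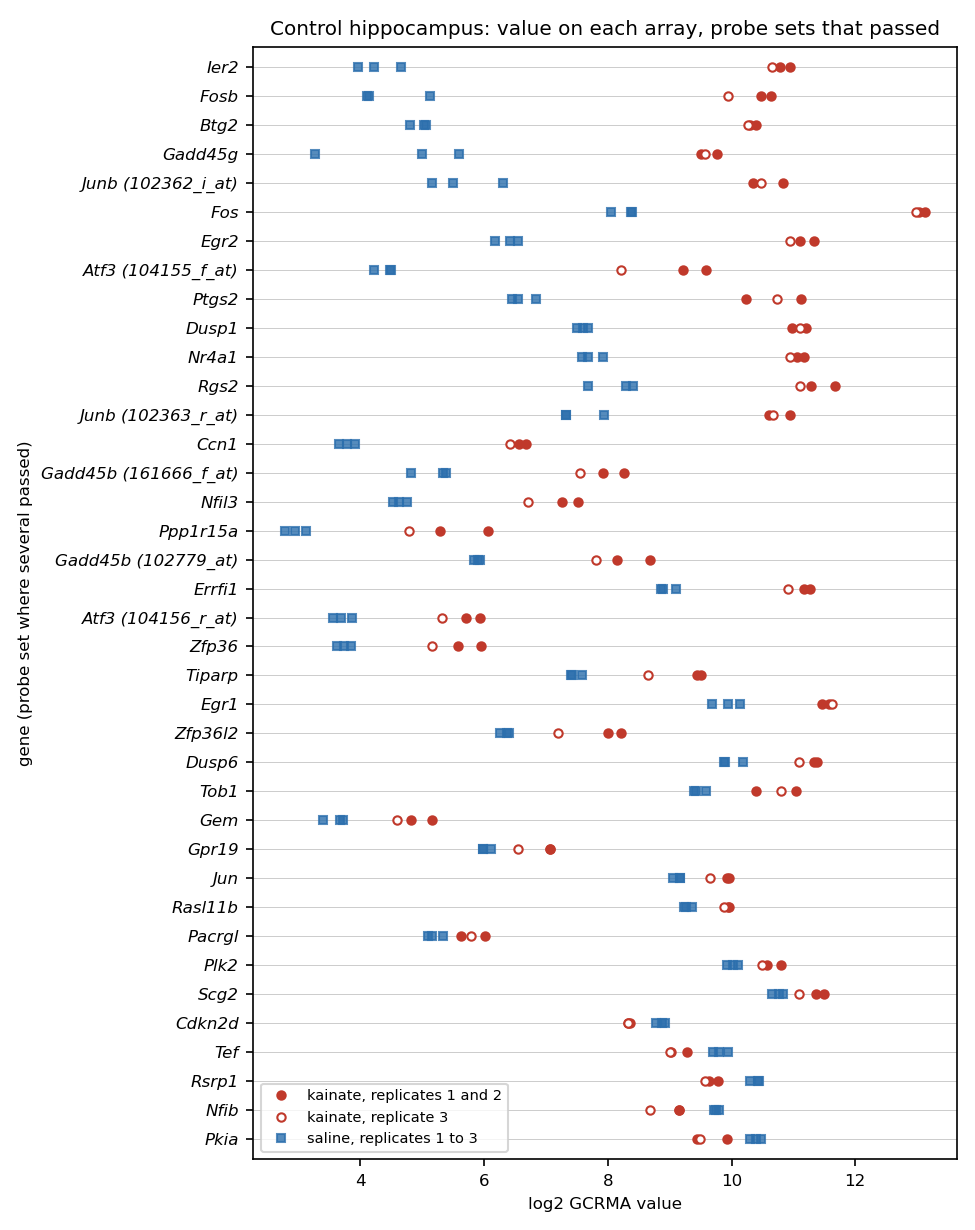
Log2 value on each of the 6 control arrays (horizontal axis) for every probe set with a single gene symbol that passed, ordered by the size of the change: circles are kainate arrays (open for replicate 3) and squares are saline arrays. The 33 rises at the top have all circles to the right of all squares, the 5 falls at the bottom have them to the left, and replicate 3 was the lowest kainate array in 26 of all 35 rises.

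Fos and Jun proteins of the AP-1 family pair and bind DNA together. Of 17 measured members of the AP-1 and ATF list, 5 rose and none fell (median 0.10). Over all 8251 genes, each read from its brightest probe set, 0.364% rose and 0.0485% fell. This list and those below were chosen with earlier results of these data known. Fos, the best-known activity marker of neurons, read 13.04, 13.13 and 12.98 on kainate arrays, against 8.05, 8.40 and 8.37 on saline arrays. It rose 27.3-fold (log2 4.77, SE 0.13, n = 3, adjusted p = 9.48e-09). The 3 kainate pools were close together and far above every saline pool. The related gene Fosb read 10.63, 10.47 and 9.93 after kainate and 5.13, 4.11 and 4.14 after saline, a 59.2-fold rise (log2 5.89, SE 0.39, adjusted p = 1.93e-05). Atf3, an ATF factor that many stresses induce, read 9.58, 9.22 and 8.22 after kainate and 4.49, 4.48 and 4.21 after saline on its brightest probe set, a 24.5-fold rise (log2 4.61, SE 0.29, adjusted p = 1.18e-05). Its groups were wide apart, with replicate 3 the lowest of the kainate arrays. A second Atf3 probe set rose by 1.95 (SE 0.17, adjusted p = 0.000195), and another, among the dimmest of the array, stood at 0.04 and did not pass.

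The Jun genes differed from one another in size of response. Junb read 10.95, 10.61 and 10.67 after kainate and 7.93, 7.33 and 7.32 after saline, a 9.29-fold rise (log2 3.21, SE 0.17, adjusted p = 2.65e-06). Its second probe set gave 29.8-fold (log2 4.90, SE 0.27), so the size depended on the probe set and the direction did not. Jun itself read 9.96, 9.92 and 9.65 after kainate, against 9.17, 9.17 and 9.06 after saline. That small rise (log2 0.71, SE 0.10, adjusted p = 0.00732) was lost without the saline array of replicate 3 (adjusted p = 0.0609), and its log2 change was 0.81 without the kainate array of replicate 3. Jund, the member that most cells express constantly, read 11.57, 11.82 and 11.86 after kainate and 11.13, 10.65 and 10.93 after saline. Its groups did not overlap, yet the difference of 0.85 (SE 0.17, adjusted p = 0.118) did not pass. The other 11 members of the list, among them Fosl1, Fosl2, Atf2 and Atf4, stood between -0.45 and 0.16. Of the list, 4 members lay below the 30th percentile of brightness, Fosl1 among them, where a missing call says little.

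Zinc finger and nuclear receptor factors followed a like division, with a few members that rose and more that did not pass. Of 13 measured Egr, Nr4a and Kruppel-like factors, 3 rose and none fell, and the median of the list was 0.50 against 0.04 over all genes. Egr2 read 11.11, 11.33 and 10.95 after kainate and 6.55, 6.42 and 6.18 after saline, a 26.9-fold rise (log2 4.75, SE 0.17, adjusted p = 7.02e-08). Egr1, also known as Zif268, read 11.58, 11.47 and 11.62 after kainate, against 9.68, 10.14 and 9.95 after saline, a 3.10-fold rise (log2 1.63, SE 0.13, adjusted p = 0.000103). Both genes separated fully, and Egr1 was already at the 93.9th percentile of the saline values. The orphan receptor gene Nr4a1 read 11.16, 11.06 and 10.95 after kainate and 7.92, 7.69 and 7.58 after saline, a 10.05-fold rise (log2 3.33, SE 0.16, adjusted p = 1.51e-06). Its relative Nr4a2 read 8.48, 8.94 and 7.94 after kainate and 6.28, 7.08 and 7.21 after saline. These groups were separate too, but the difference of 1.60 (SE 0.36, adjusted p = 0.201) did not pass. Klf4 had a difference of 1.56 (SE 0.31, adjusted p = 0.101), Klf2 one of 0.74 (SE 0.22) and Klf10 one of -0.79 (SE 0.29). Egr3, Egr4 and Nr4a3 were not analysed here.

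Of 23 other inducible nuclear regulators, 2 rose and none fell (median 0.24). Ier2, an immediate early gene for a small nuclear protein, gave the largest rise that passed: it read 10.94, 10.78 and 10.65 after kainate and 4.23, 3.96 and 4.65 after saline, or 91.2-fold (log2 6.51, SE 0.18, adjusted p = 9.48e-09). Its saline mean lay at the 49.8th percentile, with no detection call to show it above background, so the size of this fold is uncertain. Nfil3, a bZIP repressor of the D-box elements used by the circadian clock, read 7.52, 7.25 and 6.72 after kainate and 4.76, 4.53 and 4.62 after saline. Its rise was 5.75-fold (log2 2.52, SE 0.25, adjusted p = 0.000715). A second Nfil3 probe set stood at 0.19 and did not pass. Several others lay above saline without passing: Ier3 at 1.18 (SE 0.25, adjusted p = 0.156), Cebpb at 1.02 (SE 0.21, adjusted p = 0.147) and Cited2 at 0.57 (SE 0.18). Crem, which encodes the inducible cAMP repressor as one of its products, read 4.51, 4.80 and 4.80 after kainate and 4.45, 4.32 and 4.26 after saline. Its difference of 0.36 (SE 0.10) did not pass (adjusted p = 0.384). Creb1 stood at 0.13 (SE 0.12, adjusted p = 0.729), with the kainate array of replicate 3 the highest of the 6 at 4.34. Npas4 was not analysed here.

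Some inhibitors of the signalling that induces these genes also rose. Of 16 measured MAP kinase and receptor feedback inhibitors, 4 rose and none fell (median 0.09). Dusp1, a phosphatase that inactivates MAP kinases in the nucleus, read 10.98, 11.20 and 11.10 after kainate and 7.50, 7.60 and 7.67 after saline. It rose 11.3-fold (log2 3.503, SE 0.10, adjusted p = 1.69e-08). Dusp6, which acts on ERK in the cytoplasm, read 11.34, 11.38 and 11.09 after kainate and 10.18, 9.89 and 9.90 after saline, a 2.43-fold rise (log2 1.28, SE 0.13, adjusted p = 0.00104). Both phosphatase genes kept their groups apart, and the larger rise was that of the nuclear enzyme. Errfi1, which inhibits the EGF receptor, read 11.27, 11.17 and 10.92 after kainate, against 8.86, 9.10 and 8.89 after saline. Its rise was 4.498-fold (log2 2.17, SE 0.10, adjusted p = 1.35e-06), and its second probe set, at 1.78 (SE 0.39), did not pass (adjusted p = 0.183). Rgs2, which shortens G protein signalling, read 11.28, 11.67 and 11.10 after kainate and 7.67, 8.41 and 8.29 after saline, a 9.37-fold rise (log2 3.23, SE 0.22, adjusted p = 3e-05). Rgs4 stood at 0.78 (SE 0.37) and did not pass. The other 11, among them Dusp2, Dusp8, Dusp16, Spry4, Socs1 and Socs3, lay between -0.17 and 0.24. Spry4 and Socs1 were among the dimmest of the array, at percentiles of 1.59 and 0.934, so their values say little about induction.

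Of 26 measured growth arrest and stress genes, 8 rose and Cdkn2d fell, with a median of 0.49. Over all 8251 genes, each read from its brightest probe set, 0.364% rose and 0.0485% fell. The list was chosen with earlier results of these data known, so its count does not rank it above other lists. Btg2 encodes an antiproliferative protein that promotes mRNA deadenylation, and had the smallest p value of the whole comparison. Btg2 read 10.30, 10.40 and 10.26 after kainate and 4.80, 5.03 and 5.06 after saline, a 40.9-fold rise (log2 5.36, SE 0.12, adjusted p = 2.46e-09). Its relative Tob1 read 10.40, 11.04 and 10.80 after kainate and 9.58, 9.43 and 9.40 after saline, a 2.42-fold rise (adjusted p = 0.00172). Both groups of pools stayed apart in each gene.

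The Gadd45 genes encode small stress proteins that take part in DNA demethylation and p38 signalling. Gadd45g read 9.76, 9.51 and 9.58 after kainate, against 3.26, 5.59 and 4.99 after saline. The saline pools scattered, which gave this gene a wide error (log2 5.00, SE 0.67, adjusted p = 0.00732). Gadd45b read 8.68, 8.14 and 7.81 after kainate and 5.93, 5.90 and 5.84 after saline, a 4.98-fold rise (log2 2.32, SE 0.17, adjusted p = 5.16e-05), and its second probe set rose by 2.73 (SE 0.25). Gadd45a stood at 0.10 (SE 0.14) and did not pass. Ppp1r15a, or Gadd34, which restores translation after stress, read 6.06, 5.29 and 4.79 after kainate and 3.12, 2.79 and 2.94 after saline. Its rise of 2.43 (SE 0.32) had an adjusted p of 0.00655.

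Zfp36, or tristetraprolin, and Zfp36l2 bind AU-rich elements and speed the decay of mRNAs, including those of immediate early genes. Zfp36 read 5.57, 5.95 and 5.16 after kainate and 3.85, 3.62 and 3.73 after saline, a 3.56-fold rise (adjusted p = 0.000715). Zfp36l2 read 7.996, 8.21 and 7.19 after kainate and 6.36, 6.25 and 6.40 after saline. Its rise of 1.46 (SE 0.23, adjusted p = 0.0246) was lost in 6 of the 12 fits that leave out 1 array, with the highest adjusted p of 0.139 without the saline array of replicate 2, and was 1.76 without the kainate array of replicate 3. Plk2, a polo-like kinase that acts in synaptic scaling, read 10.79, 10.58 and 10.49 after kainate and 9.93, 10.10 and 10.02 after saline. That rise of 0.60 (SE 0.09, adjusted p = 0.0218) was also lost in 6 of the 12 fits (adjusted p up to 0.123, without the saline array of replicate 3). Sertad1, a cell cycle regulator, lay just outside the threshold at 0.71 (SE 0.13, adjusted p = 0.0507).

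Among secreted proteins and enzymes, 3 of 35 measured genes rose and none fell (median 0.13), and 8 lay below the 30th percentile of brightness. Ptgs2, the inducible cyclooxygenase COX-2, read 10.24, 11.13 and 10.73 after kainate and 6.45, 6.84 and 6.55 after saline, a 17.0-fold rise (log2 4.08, SE 0.30, adjusted p = 4.89e-05). Ccn1, a matricellular protein also called Cyr61, read 6.68, 6.56 and 6.42 after kainate and 3.91, 3.65 and 3.79 after saline, a 6.85-fold rise (log2 2.78, SE 0.10, adjusted p = 1.13e-07). The groups lay far apart in both, with the kainate pools closer together for Ccn1 than for Ptgs2, whereas the related Ccn2 stood at 0.17 (SE 0.26). Scg2, a granin of dense core vesicles, read 11.37, 11.49 and 11.09 after kainate and 10.77, 10.83 and 10.65 after saline. Its rise of 0.57 (SE 0.10, adjusted p = 0.0475) was the nearest to the threshold. It was lost in 11 of the 12 fits that leave out 1 array (adjusted p up to 0.3, without the saline array of replicate 3) and was 0.68 without the kainate array of replicate 3. Bdnf, the neurotrophin, read 11.33, 11.97 and 11.55 after kainate and 10.19, 10.93 and 10.65 after saline. Its groups did not overlap, but the difference of 1.02 (SE 0.27) did not pass (adjusted p = 0.354). Nptx2, a synaptic pentraxin, had 7.38, 6.79 and 5.62 after kainate against 5.78, 4.90 and 4.81 after saline. Here the lowest kainate pool lay below the highest saline pool (difference 1.43, SE 0.42, adjusted p = 0.448).

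Of 19 measured synaptic and small GTPase genes, 3 rose and none fell (median 0.01). The small GTPase Gem, which inhibits calcium channels, read 4.81, 5.16 and 4.59 after kainate and 3.39, 3.72 and 3.68 after saline, a rise that passed narrowly (log2 1.26, SE 0.22, adjusted p = 0.0421). Rasl11b, a Ras-like protein, read 9.96, 9.94 and 9.88 after kainate and 9.27, 9.23 and 9.36 after saline (log2 0.64, SE 0.09, adjusted p = 0.00732). The orphan receptor gene Gpr19 read 7.06, 7.06 and 6.54 after kainate, against 6.11, 5.97 and 5.98 after saline (log2 0.87, SE 0.14, adjusted p = 0.0234). All 3 separated, but leaving out 1 array at a time cost Gem its call in 10 of 12 fits, Gpr19 in 8 and Rasl11b in 1. The highest adjusted p values in those fits were 0.166 for Gem and 0.146 for Gpr19, both without the saline array of replicate 3, and 0.0696 for Rasl11b without that of replicate 2. Rasd1, a dexamethasone-inducible Ras protein, stood at 0.90 (SE 0.29, adjusted p = 0.504) and Siah2, a ubiquitin ligase, at 0.86 (SE 0.24, adjusted p = 0.394). Homer1 was at -0.37 (SE 0.19). Arc was not analysed here.

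Tiparp and Pacrgl also rose and belonged to none of the lists. Tiparp, a poly(ADP-ribose) polymerase induced through the aryl hydrocarbon receptor, read 9.51, 9.45 and 8.64 after kainate and 7.42, 7.58 and 7.41 after saline, a 3.32-fold rise (adjusted p = 0.00417). Pacrgl read 5.62, 6.02 and 5.79 after kainate and 5.33, 5.15 and 5.09 after saline. Its rise of 0.62 (SE 0.10, adjusted p = 0.0365) was lost in 10 of the 12 fits that leave out 1 array (adjusted p up to 0.229, without the saline array of replicate 3), and its other probe set stood at 0.16. The other 2 rises were of a probe set with no symbol, at 0.82 (SE 0.10), and of one with several, at 1.05 (SE 0.16). The 8 rises that could be lost by leaving out 1 array were Jun, Rasl11b, Plk2, Gpr19, Zfp36l2, Pacrgl, Gem and Scg2. Without the control kainate array of replicate 3, Rasl11b was at 0.66, Plk2 at 0.67 and Gpr19 at 1.04, which passed, and Pacrgl at 0.63 (adjusted p = 0.0725) and Gem at 1.39 (adjusted p = 0.0576), which did not. Within replicates 2 and 3, Pacrgl passed at 0.78. The other 7 did not pass there: Jun was at 0.67 (adjusted p = 0.0697), Rasl11b at 0.61 (adjusted p = 0.0581), Plk2 at 0.48 (adjusted p = 0.0805), Gpr19 at 0.82 (adjusted p = 0.0883), Zfp36l2 at 1.37 (adjusted p = 0.0873), Gem at 1.18 (adjusted p = 0.0764) and Scg2 at 0.55 (adjusted p = 0.13). Their direction was the same in both settings. Of the 33 rises with a single symbol, 25 kept their call whichever array was left out, and 22 kept it in every alternative fit that included them.

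The called genes with 1 probe set that passed and another that did not numbered 11, with 12 such probe sets, of which 9 lay below the middle of the array in brightness. The rises came from genes of very different brightness under saline: 8 of the 35 lay below the median saline value and 6 above the 90th percentile.

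**Figure D2:**
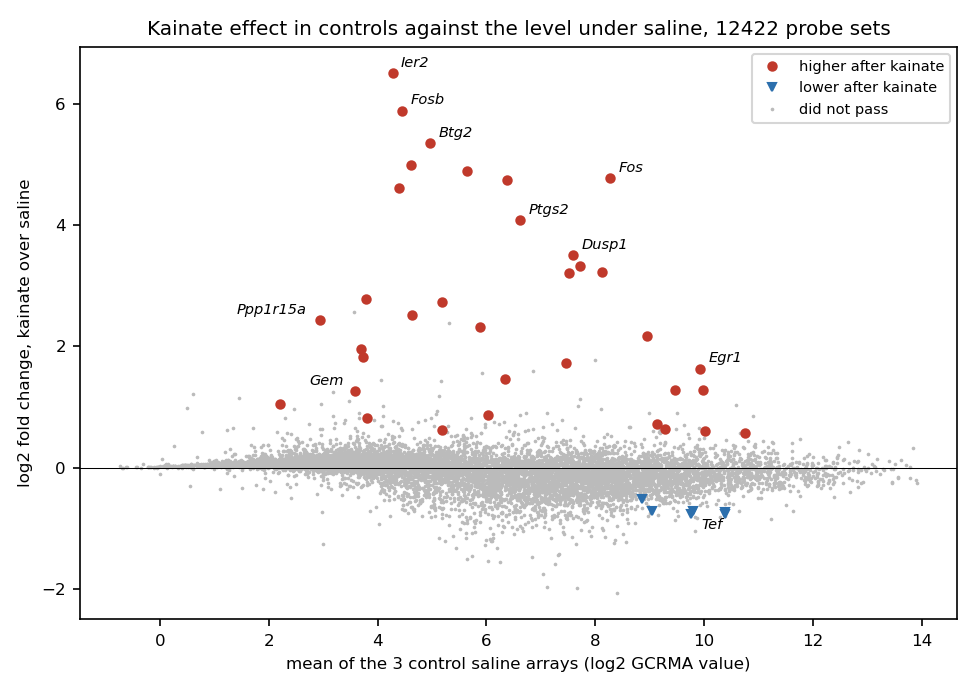
Log2 fold change of kainate over saline in controls (vertical axis) against the mean of the 3 control saline arrays (horizontal axis, log2 value) for 12422 probe sets. The 35 rises (circles) are spread over saline values and reach 6.51, and the 6 falls (triangles) lie among the brightest probe sets and reach -0.77.

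Promoter sequence was read from RefSeq (GRCm38.p6) in windows of 300 bases, 250 before and 50 after each annotated start. Of the 30 genes that rose, 26 had a window, as did 6572 of the 8251 genes on the array. The cAMP response element TGACGTCA, the site bound by CREB and CREM, stood in a window of 7 of the 26 genes (26.9%) against 208 of the 6572 (3.16%). Its core TGACG, one side of the palindrome, which lies within every full element, was found on either strand in 19 of the 26 (73.1%) against 33% of genes on the array. The genes with the full element were Btg2, Dusp1, Errfi1, Ppp1r15a, Plk2, Pacrgl and Scg2. Their control log2 changes, given above, span 0.57 to 5.36. Plk2, Pacrgl and Scg2 among them could lose their call when 1 array was left out, so this share rests in part on calls near the threshold. The 5 windows that follow are printed to set promoters with the full element beside promoters with its core alone, among steep rises and a small one. Those of Btg2, Dusp1 and Scg2 hold a full element, and those of Fos and Nr4a1 hold cores only. The windows lie at chr1:134079106-134079405 for Btg2, chr17:26508423-26508722 for Dusp1 and chr1:79439977-79440276 for Scg2, all on the minus strand, and at chr12:85473640-85473939 for Fos and chr15:101266596-101266895 for Nr4a1 on the plus strand. Each runs 5′ to 3′ along its gene, and capitals mark cores and full elements on either strand.
Btg2: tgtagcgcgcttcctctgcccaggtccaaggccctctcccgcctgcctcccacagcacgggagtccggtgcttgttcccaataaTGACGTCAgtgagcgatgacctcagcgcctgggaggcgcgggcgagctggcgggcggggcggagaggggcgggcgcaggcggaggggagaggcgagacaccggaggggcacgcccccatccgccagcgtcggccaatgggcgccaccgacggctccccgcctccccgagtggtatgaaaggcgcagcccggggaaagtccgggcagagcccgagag
Dusp1: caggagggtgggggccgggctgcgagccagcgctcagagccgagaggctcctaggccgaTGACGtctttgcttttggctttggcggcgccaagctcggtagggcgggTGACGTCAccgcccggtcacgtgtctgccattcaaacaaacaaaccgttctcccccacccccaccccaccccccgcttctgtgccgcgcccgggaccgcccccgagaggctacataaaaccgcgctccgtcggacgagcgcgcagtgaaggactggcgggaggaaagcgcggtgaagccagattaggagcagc
Scg2: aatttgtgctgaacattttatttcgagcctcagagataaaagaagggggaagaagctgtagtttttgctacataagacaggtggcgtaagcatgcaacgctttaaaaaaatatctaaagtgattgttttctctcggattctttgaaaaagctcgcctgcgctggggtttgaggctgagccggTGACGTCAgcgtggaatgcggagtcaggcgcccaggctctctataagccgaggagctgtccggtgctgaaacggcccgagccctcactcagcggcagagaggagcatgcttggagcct
Fos: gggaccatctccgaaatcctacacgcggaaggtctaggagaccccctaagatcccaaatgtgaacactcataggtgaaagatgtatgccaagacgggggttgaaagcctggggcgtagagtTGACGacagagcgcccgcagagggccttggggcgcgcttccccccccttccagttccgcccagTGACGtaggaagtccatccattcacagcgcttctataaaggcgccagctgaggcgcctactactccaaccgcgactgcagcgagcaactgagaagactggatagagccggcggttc
Nr4a1: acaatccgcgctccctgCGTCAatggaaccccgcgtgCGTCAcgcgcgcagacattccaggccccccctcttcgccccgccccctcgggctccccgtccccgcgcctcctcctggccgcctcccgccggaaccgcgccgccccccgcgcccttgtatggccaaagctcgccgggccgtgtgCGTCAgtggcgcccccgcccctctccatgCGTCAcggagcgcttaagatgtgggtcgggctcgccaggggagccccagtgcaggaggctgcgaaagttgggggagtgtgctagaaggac

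In these windows the Btg2 and Scg2 sequences each hold 1 full element, which is palindromic and counts as 2 cores. The Dusp1 window holds a full element and a further core, that of Fos 2 cores and that of Nr4a1 4. The share of windows with each motif over all 32851 windows of the genome was 1.79% for the full element and 20.8% for the core. Among the other motifs, searched on both strands, the TATA box TATAAA stood in 8 of the 26 genes (30.8%) against 12.2% of genes on the array, and the E-box CACGTG in 5 (19.2%) against 11.5%. The CArG box of serum response factor was in 2 (7.69%, Egr2 and Zfp36) against 1.92%, and the NF-kappa B site in 3 (11.5%, Fos, Fosb and Nr4a1) against 6.38%. The AP-1 site TGANTCA stood in 1 gene (3.85%, Pacrgl) against 7.52%. Neither the Egr site GCGTGGGCG (1.19% of genes) nor the D-box TTANGTAA (2.02%) was found in these windows. Over all windows of the genome these shares were 13.6% for the TATA box, 7.15% for the E-box, 1.63% for the CArG box, 4.51% for the NF-kappa B site, 7.81% for the AP-1 site, 0.612% for the Egr site and 2.32% for the D-box. Genes that rose had 1.31 windows on average and those on the array 1.28. Of the 3 genes that fell and had a window, Rsrp1 held a core, Tef an E-box and Cdkn2d an NF-kappa B site, and none held the full element. A match describes these letters only. The promoters of Ier2, Egr1, Gem, Zfp36l2, Nfib and Pkia were not analysed here.

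**Figure D3:**
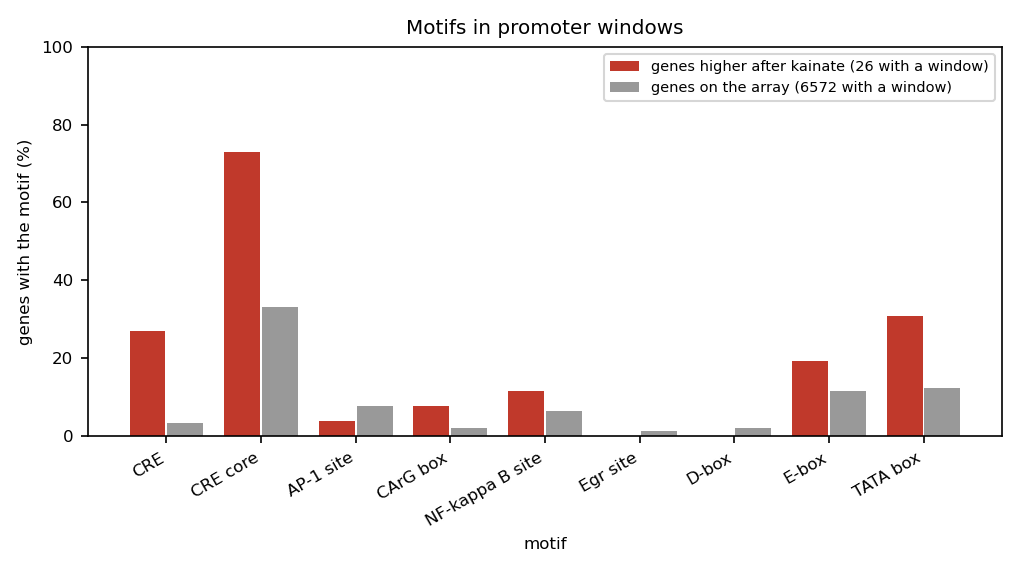
Share of genes (vertical axis, percent) with each motif in a promoter window, for the 26 genes that rose after kainate and had a window (left bar of each pair) and for the 6572 genes on the array with a window (right bar). The full cAMP response element was in 26.9% of the genes that rose and 3.16% of those on the array, and its core in 73.1% and 33%.

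The falls were few and small, and all came from bright probe sets, at the 87.6th to the 95.6th percentile of saline values. Tef, a clock-controlled activator of D-box elements, read 9.28, 9.01 and 9.0003 after kainate and 9.70, 9.94 and 9.79 after saline (log2 -0.71, SE 0.10, adjusted p = 0.0113). Cdkn2d, the cyclin-dependent kinase inhibitor p19, read 8.36, 8.32 and 8.33 after kainate and 8.78, 8.87 and 8.93 after saline (log2 -0.52, SE 0.08, adjusted p = 0.0136). The kainate pools lay below every saline pool in both genes. Nfib, a nuclear factor I transcription factor, read 9.15, 9.15 and 8.69 after kainate and 9.80, 9.72 and 9.75 after saline on the probe set that passed (log2 -0.76, SE 0.12, adjusted p = 0.03). Its brighter probe set stood at -0.29 (SE 0.14, adjusted p = 0.694). The kainate array of replicate 3 was the lowest on both Nfib probe sets.

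Rsrp1, a protein rich in arginine and serine, read 9.63, 9.79 and 9.56 after kainate and 10.30, 10.42 and 10.44 after saline (log2 -0.73, SE 0.12, adjusted p = 0.0329). Pkia, an inhibitor of protein kinase A, read 9.43, 9.92 and 9.49 after kainate and 10.39, 10.48 and 10.29 after saline (log2 -0.77, SE 0.13, adjusted p = 0.0372). A second Pkia probe set read 7.52, 7.19 and 6.76 after kainate and 8.15, 8.40 and 8.52 after saline, a difference of -1.20 that did not pass (SE 0.27, adjusted p = 0.189). The remaining fall was of a probe set with no symbol, at -0.71 (SE 0.11).

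Leaving out 1 array at a time cost all 5 named falls their call in 3 or more of the 12 fits. The highest adjusted p values were 0.0841 for Tef and 0.221 for Pkia without the saline array of replicate 2, and 0.11 for Cdkn2d, 0.155 for Nfib and 0.198 for Rsrp1 without that of replicate 3. Without the kainate array of replicate 3 the log2 changes were -0.66 for Tef, -0.52 for Cdkn2d and -0.61 for Nfib, which passed, and -0.68 for Rsrp1 (adjusted p = 0.0996) and -0.71 for Pkia (adjusted p = 0.116), which did not. Within replicates 2 and 3 they were -0.86 for Tef and -0.76 for Rsrp1, which passed, and -0.57 for Cdkn2d (adjusted p = 0.0503), -0.81 for Nfib (adjusted p = 0.0728) and -0.68 for Pkia (adjusted p = 0.104), which did not. The 3106 probe sets brightest under saline had a median difference of -0.12, and of -0.04 without that array. The 3105 dimmest had one of 0.08, and of -0.02 without it. The part of this drift in the falls was not tested.

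The lists around the genes that fell gave few other calls. Of 18 circadian clock and D-box genes, Nfil3 rose and Tef fell (median -0.03), 2 factors that in textbook accounts act in opposite ways on the same D-box elements. The period gene Per1 stood at 0.97 (SE 0.22, adjusted p = 0.187) with separate groups, and Nr1d2, a repressor of the clock, at -0.92 (SE 0.30, adjusted p = 0.504). Of 21 genes of protein kinase A and cAMP signalling, only Pkia passed. Their median was -0.14, and -0.06 without the kainate array of replicate 3. This list was bright (median percentile 77.9), and the part of the drift of bright probe sets in its median was not tested. Adcy6, an adenylyl cyclase, stood at -0.61 (SE 0.32). Of 37 splicing factors and speckle proteins, Rsrp1 fell and none rose (median -0.11, and -0.02 without the kainate array of replicate 3). Srsf10 stood at -1.22 (SE 0.43, adjusted p = 0.552), with 3.68 on the kainate array of replicate 3 against 5.36 and 5.60 on the other kainate arrays. None of 17 nuclear factor I, MEF2 and neuronal factors passed by its brightest probe set (median 0.04).

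The receptors that kainate acts on and those of inhibition showed no call at 1 hour. None of 13 glutamate receptor genes passed (median -0.03), nor any of 12 GABA and glycine receptor genes (median -0.07) or 27 voltage-gated channel genes (median 0.01). In that order, 4, 4 and 6 of these genes lay below the 30th percentile of brightness, where a missing call says little. The kainate receptor subunit Grik1 stood at 0.34 (SE 0.13, adjusted p = 0.586) and Grin2c, an NMDA receptor subunit, at -0.45 (SE 0.11, adjusted p = 0.218). Among 26 heat shock proteins and chaperones none passed (median -0.12), with the co-chaperone Dnajb1 highest at 1.13 (SE 0.25, adjusted p = 0.175) and Hspa4l lowest at -0.98 (SE 0.34). None of 19 glucocorticoid-responsive genes passed (median 0.10), and Sgk1, a kinase induced by that hormone, stood at 0.43 (SE 0.10, adjusted p = 0.211). Of 17 NF-kappa B members and feedback genes none passed (median 0.10), with 5 below the 30th percentile of brightness. Nfkbiz, a nuclear regulator of that pathway, read 6.68, 7.26 and 4.48 after kainate and 3.43, 3.59 and 3.68 after saline. It was higher on every kainate array, by far the least on that of replicate 3, and its difference of 2.57 (SE 0.54) did not pass (adjusted p = 0.147).

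**Figure D4:**
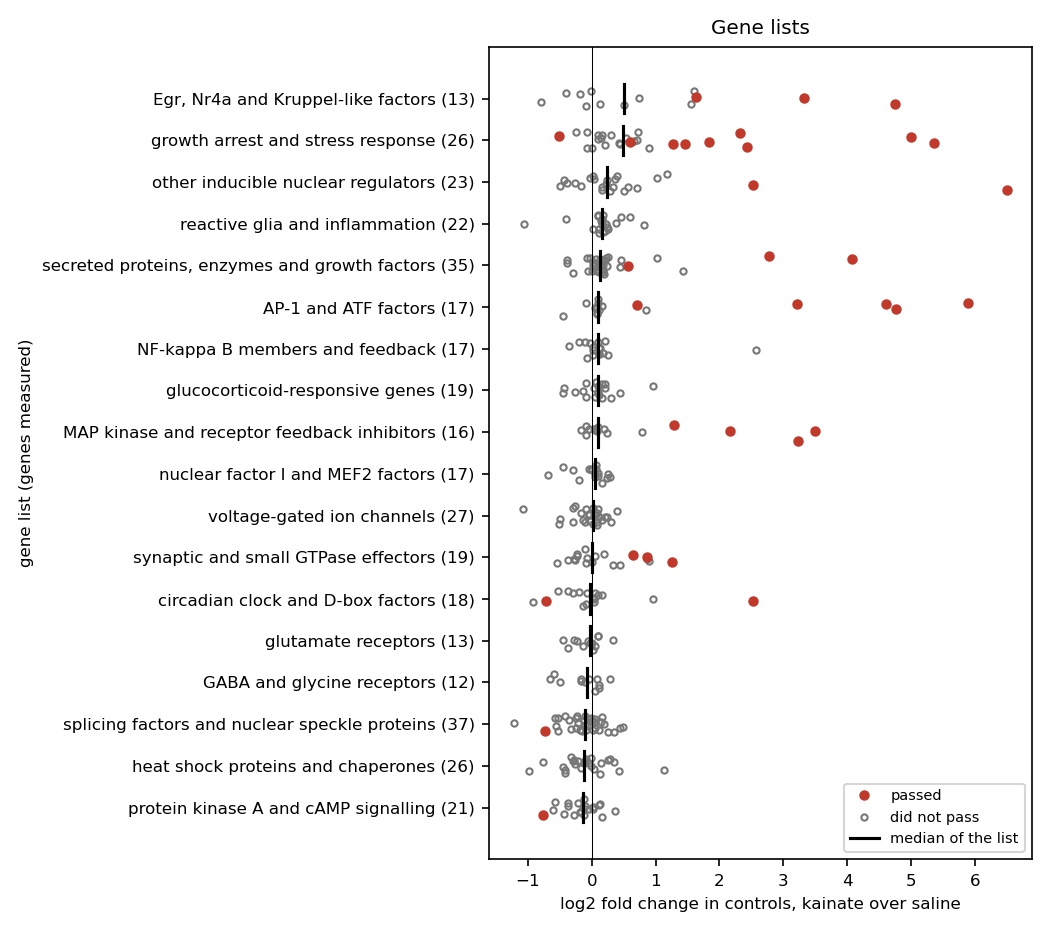
Log2 fold change of kainate over saline in controls (horizontal axis) for the measured genes of 18 lists, each gene by its brightest probe set, with the number measured in parentheses: filled points passed, open points did not, and the bar is the median of the list. The medians run from -0.14 to 0.50, and the rises of single members reach 6.51.

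None of the members of 12 lists of cell type markers passed. Averaged over 10 general neuronal markers, the level was 9.75 to 9.97 on kainate arrays and 10.07 to 10.37 on saline arrays, without overlap. The median difference was -0.14, with 7 markers negative and 3 positive. Only 2, Map2 and Snap25, had all kainate arrays below all saline arrays. Map2, a dendritic microtubule protein, was lowest at -1.99 (SE 0.47, adjusted p = 0.217) and weighed most on the average, followed by Syt1 at -0.72 (SE 0.57). Map2 read 6.53, 5.42 and 5.07 after kainate and 7.36, 7.78 and 7.88 after saline. The 8 oligodendrocyte markers averaged 8.61 to 9.003 after kainate and 9.06 to 9.16 after saline, again without overlap. Of these markers 6 had negative and 2 positive differences, and only 1, Mal, had all kainate arrays below all saline arrays. Ugt8a, at -1.48 (SE 0.71, adjusted p = 0.703), weighed most on the average. In whole hippocampus, fewer cells of a type and less RNA per cell cannot be told apart. The neuronal and oligodendrocyte lists were also bright, with median percentiles of 96.2 and 92.3. Their median differences of -0.14 and -0.17 lay near the -0.12 of the 3106 probe sets brightest under saline. The part of that drift in these averages was not tested. Markers of endothelium, pericytes and blood (11 genes) averaged 5.73 to 5.87 after kainate and 5.57 to 5.66 after saline, and those of microglia (12 genes) 6.27 to 6.44 after kainate and 6.18 to 6.23 after saline. The part of these 4 shifts in the results was not tested. Without the kainate array of replicate 3 the median differences were -0.10 for neurons, -0.03 for oligodendrocytes, 0.08 for endothelium and 0.01 for microglia. Astrocyte markers (8 genes) overlapped, at 8.61 to 8.92 after kainate and 8.73 to 8.80 after saline. None of 22 genes of reactive glia and inflammation passed, with 20 of them above 0 (median 0.17, and -0.01 without the kainate array of replicate 3). Of the 22, 6 lay below the 30th percentile of brightness. Markers of the principal cells of the hippocampus ranked at the 43.0th percentile of brightness or higher, without a detection call to show which were above background. Several lay well up the range, among them Calb1 at the 91.9th percentile, Wfs1 at the 89.9th and Rgs14 at the 87.2nd, while Prox1 and Coch lay at the 44.1st and 43.0th. The levels of these lists overlapped between the groups. The 6 markers of dentate granule neurons averaged 5.91 to 6.39 after kainate and 6.10 to 6.34 after saline, the 5 of CA1 7.37 to 7.67 after kainate and 7.28 to 7.85 after saline, and the 8 of CA3 and CA2 5.84 to 5.92 after kainate and 5.88 to 5.97 after saline. Interneuron markers (11 genes) had a median difference of -0.07, those of choroid plexus and meninges (9 genes) -0.26, those of neighbouring striatum and thalamus (6 genes) -0.03 and sex-linked genes (4 genes) 0.01, all with overlapping levels.

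The mutants gave a second set of arrays in which the same probe sets could be read. Kainate raised 33 probe sets there (0.266%) and lowered 4 (0.0322%). Of the 35 probe sets raised in controls, 34 were higher in mutants too and 24 passed there, and of the 6 lowered in controls 6 were lower and 2 passed. Over all probe sets 51.5% had the same sign in both genotypes. In the mutants 31 of the 35 had all kainate arrays above all saline arrays, as 4.98% of all probe sets did, and all 6 falls had them below, as 7.39% did. The difference between the kainate responses of mutants and controls passed for 0 probe sets (0%) in limma, with 107 at an unadjusted p under 0.05. If nothing had differed, 621 would be expected there. The count fell short of that, so the 0 calls do not show that the responses were equal. Kainate and saline arrays that share a replicate number deviated together, except in replicate 3 of the controls. The part of this in the count was not tested.

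Several genes had close values in both genotypes. Egr2 changed by 4.76 in mutants and 4.75 in controls, with a 95% interval of the difference from -0.51 to 0.53. Dusp1 changed by 3.65 in mutants and 3.503 in controls (interval -0.18 to 0.47) and Egr1 by 1.62 in mutants and 1.63 in controls (interval -0.43 to 0.39). Fos changed by 5.92 in mutants and 4.77 in controls. Its kainate arrays read 13.19, 13.01 and 12.89 in mutants, close to those of controls, while its saline arrays read 7.17, 7.29 and 6.89 in mutants, below the 3 control values. That difference of 1.14 (SE 0.19) did not pass (adjusted p = 0.333).

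Atf3 and Gadd45b had lower kainate values in mutants. Atf3 read 7.50, 7.35 and 6.92 on mutant kainate arrays and 4.53, 4.40 and 4.39 on mutant saline arrays, a change of 2.82 in mutants and 4.61 in controls. Gadd45b read 6.75, 6.60 and 6.54 on mutant kainate arrays and 5.82, 5.75 and 5.74 on mutant saline arrays, a change of 0.86 in mutants and 2.32 in controls. For both genes the mutant kainate arrays lay below every control kainate array and the saline values were close. The differences were -1.80 for Atf3 (SE 0.41, adjusted p = 0.939) and for Gadd45b -1.46 (SE 0.24, adjusted p = 0.333). Without the control kainate array of replicate 3 they were -2.19 and -1.66, each with adjusted p = 0.0248, and 5 probe sets passed in all: both Atf3 probe sets that rose, Gadd45b, Gpr19 and the rise with no symbol. Gpr19 changed by 0.07 in mutants and 0.87 in controls, and the probe set with no symbol by -0.02 in mutants and 0.82 in controls. Nfil3 changed by 1.04 in mutants and 2.52 in controls, and Ppp1r15a by 1.09 in mutants and 2.43 in controls, differences with an adjusted p of 0.939. Rasl11b changed more, by 1.35 in mutants and 0.64 in controls (difference 0.71, SE 0.12, adjusted p = 0.333).

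**Figure D5:**
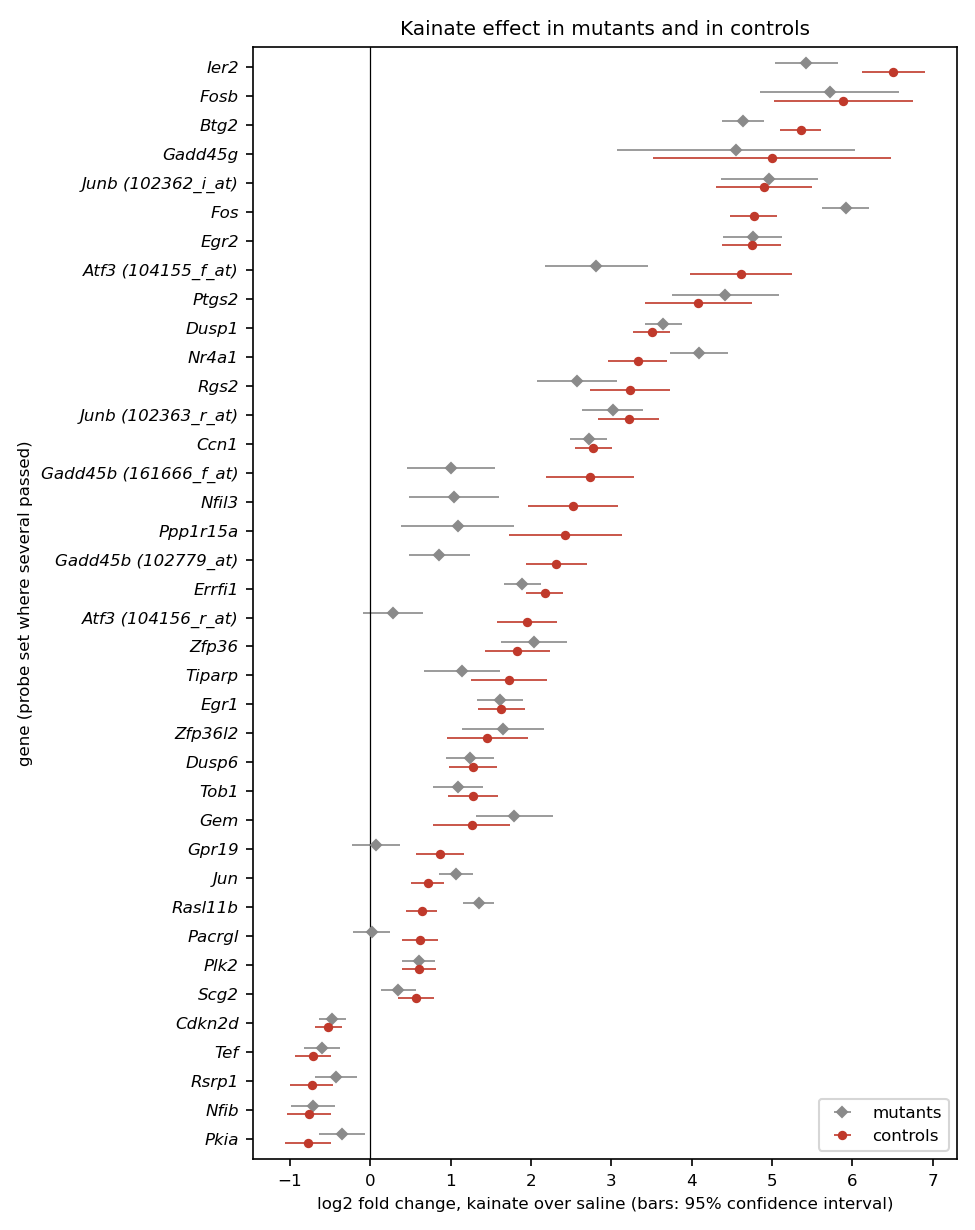
Log2 fold change of kainate over saline (horizontal axis, with its 95% confidence interval) for each probe set with a single symbol that passed in controls, in mutants (diamonds) and in controls (circles). The intervals overlap for Egr2, Dusp1 and Egr1, among others. They lie apart for several genes, among them Atf3, Gadd45b, Fos, Ier2, Btg2, Nfil3 and Nr4a1. None of the differences between genotypes passed in limma over all arrays (adjusted p of 0.333 or more).

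The genes with the full cAMP response element in a promoter window had a median change of 1.09 in mutants and 2.17 in controls (7 genes), and 6 of the 7 had the smaller value in mutants. The 19 genes without it had a median of 2.57 in mutants and 2.78 in controls, and 12 of them had the smaller value in mutants. Among these 19 were Atf3, Gadd45b, Nfil3 and Gpr19. The medians of the 7 are of different genes. Errfi1 changed by 1.89 in mutants and 2.17 in controls, and Ppp1r15a by 1.09 in mutants and 2.43 in controls. Plk2, counted among the 6, changed by 0.60 in both, and Dusp1 by 3.65 in mutants and 3.503 in controls. The genes of both groups were chosen by their rise in controls, and no test was made. Btg2, whose window was printed above, changed by 4.64 in mutants and 5.36 in controls, and Scg2 by 0.35 in mutants and 0.57 in controls. Pacrgl, whose rise in controls is given above, was the lowest of the 7 in mutants, at 0.02.

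The genes just outside the threshold in controls included Zkscan14, a zinc finger gene, at -1.52 (SE 0.27, adjusted p = 0.0577), and Rnf220, a ubiquitin ligase, at -0.52 (SE 0.10, adjusted p = 0.0805). The transcription factor gene Nfya followed at -0.79 (SE 0.15, adjusted p = 0.0816). Slc16a1, the monocarboxylate transporter MCT1, stood at 0.79 (SE 0.15, adjusted p = 0.0989), the splicing factor gene Sf1 at -0.54 (adjusted p = 0.1) and the kinase gene Pim3 at 0.90 (SE 0.18, adjusted p = 0.104). Inside the threshold, the last were Scg2, Gem and Pkia.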

How the data were processed

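The deposited values are log2 expression, which the submitters' processing notes credit to GCRMA under R 2.4.1. The GCRMA version, and whether the 12 arrays were normalised jointly, are not given in the sources used here. Of 12488 probe sets, 66 Affymetrix controls were removed. Platform symbols were updated through Entrez identifiers to RefSeq (GRCm38.p6): 10833 probe sets had 1 symbol, 396 several and 1193 none.

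A limma 3.58.1 model in R 4.3.3 gave each of the 4 groups a mean, with the spread estimated over the 12 arrays together (residual degrees of freedom 8, prior 2.48). Tests are two-sided, and errors of changes are standard errors (SE). Arrays give no counts, so their number limits the precision. The fit was tested on simulated data.

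Named genes are every gene with 1 symbol that passed in controls, 10 just outside, up to 4 members of each list with the largest differences, Creb1 and Crem, and a few relatives chosen after their values were seen. The members, the 18 lists and the 12 marker lists were chosen with earlier results of these data known. Genes in lists are read from their brightest probe set. Alternatives were a replicate block, quantile normalisation, centring, a filter on dim probe sets, an intensity trend, only the arrays compared, averages per gene, array weights (gene by gene), a 1.5-fold minimum, each array left out and batches of replicate 1.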

Additional observations from a re-analysis of the deposited data

How the results depend on the processing

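With 3 arrays a group, small changes sat near the threshold. The 41 probe sets called in controls became 27 to 56 when 1 array was left out (27 without the saline array of replicate 2), 22 (0 lower) with only the arrays compared, 146 within replicates 2 and 3, 79 with the replicate 1 batch and without the control kainate array of replicate 3, and 380 (161 higher, 219 lower) with array weights, which ran from 0.0321 for that array to 6.17. In the mutants, 37 became 26 to 51 with 1 array left out, 94 within replicates 2 and 3, 64 with the replicate 1 batch, 173 with that batch and without the control kainate array of replicate 3, and 1619 with array weights. The difference between genotypes, with 0 probe sets, gave 0 to 5 with 1 array left out (5 without the control kainate array of replicate 3), 6 with the batch as well, and 8 with array weights, among them Siah2 and Rasl11b. The cause of these shifts was not tested. The other settings kept the counts within 1.5 times.

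Kainate and saline arrays that share a replicate number deviated from their group means with correlations of 0.368, 0.400 and -0.011 in controls and 0.625, 0.408 and 0.447 in mutants. Replicate 3 of the controls did not deviate together, so the numbers were not taken as pairs in the control comparison, although the other 5 pairs did. Control pairs with unlike numbers ranged from -0.463 (kainate replicate 2 with saline replicate 1) to 0.359 (kainate replicate 2 with saline replicate 3). A value near 0.400 thus did not need a shared number. With the replicate block, 48 probe sets passed in controls (40 higher, 8 lower), 44 in mutants and 0 for the difference.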

Other observations

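The control pools of 1 group differed among themselves in some genes that had no kainate call. Id1, a helix-loop-helix inhibitor, read 7.24, 7.05 and 7.41 after kainate and 5.49, 7.02 and 7.06 after saline, so that the saline array of replicate 1 was far below the other 5 (difference 0.71, SE 0.37). Gabra2, a GABA-A receptor subunit, read 8.31, 9.60 and 9.46 after kainate and 8.60, 10.29 and 10.27 after saline, with replicate 1 the lowest in both groups. Mag, a myelin protein, read 9.89, 8.41 and 8.15 after kainate and 9.95, 8.63 and 8.73 after saline, with replicate 1 the highest in both. Xist, which females express, read 3.64, 6.49 and 3.92 after kainate and 3.65, 5.98 and 3.23 after saline, with replicate 2 the highest in both.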
